A study of Sus scrofa with 18 samples.

Results

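The comparison described here set the gastrocnemius muscle, a calf muscle, of pigs of group IM10 against that of pigs of group IM5. It asked how muscle transcripts differed between complete and partial replacement of soybean extraction meal by insect meal. Its members were all arrays labelled IM10 and all arrays labelled IM5, which are 12 of the 18 arrays of the muscle series. The diet of group IM10 (n = 6 pigs) held 10% insect meal and had 100% of its soybean extraction meal replaced. The diet of group IM5 (n = 6) held 5% insect meal and had 50% replaced. The diet of group CON (n = 6) held 0% insect meal, and these arrays entered no main test below and show where control pigs lie, while 1 alternative fit of all 18 arrays used them to estimate the spread. All pigs were male crossbreds of Piétrain with German Landrace and German Edelschwein, were 5 weeks old at the start, were fed for 4 weeks and were killed on day 29. The insect meal was made from mealworm larvae (Tenebrio molitor L.). The 3 diets were matched for nitrogen, so the IM10 diet also held more added cellulose and other amounts of free amino acids and oils than the IM5 diet, and these differences cannot be told apart from that in insect meal. Pigs shared pens, which the sources do not list pig by pig, so all tests treat each pig as independent.

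Skeletal muscle adjusts its mass by balancing protein synthesis against breakdown. Breakdown runs through ubiquitin ligases, which mark proteins for the proteasome, and through autophagy, in which a membrane closes around cell contents and carries them to the lysosome. Forkhead (FOXO) transcription factors switch on genes of both routes, while the ATF4 pathway raises amino acid transport and synthesis genes when amino acids are short. A piece of muscle also holds vessels, nerve, connective tissue and immune cells, and their transcripts are measured together with those of the fibres.

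The values are log2 levels deposited by the authors for 25388 transcripts, each measured by 1 set of probes. Genes that mark skeletal muscle fibres were bright in every pig, with a mean log2 level of their 14 transcripts between 11.69 and 11.96 in group IM10 and between 11.74 and 11.96 in group IM5. Any 2 of the 12 arrays correlated with r between 0.978 and 0.99 across transcripts, and array medians lay within 0.07 of each other on the log2 scale. IM10 replicate 2 stood somewhat apart, with a mean r of 0.981 to the other arrays, the lowest of the 12, and 25 of 30 transcripts of the macrophage and monocyte list had their highest value of the 12 pigs in it. Results that rest on this pig are therefore given with and without it. Precision is limited by how many pigs were arrayed, and the median standard error of a log2 difference was 0.11.

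Differences between group IM10 and group IM5 were small. A transcript was called, and is said below to have risen or fallen in group IM10, when limma gave an unadjusted P under 0.05 and the fold change was beyond 1.2, the thresholds used by the study. In group IM10, 342 transcripts rose (1.35% of those tested) and 330 fell (1.3%), together 2.65%. The median log2 difference was 0.33 among the rises and -0.33 among the falls, and 1 called transcript, which carries no gene name, differed by more than 2-fold, and it fell by 1.12 on the log2 scale. No transcript passed an adjusted p of 0.05 (limma with the Benjamini-Hochberg correction over all 25388). The lowest adjusted p was 0.227, and 1207 transcripts (4.75%) had an unadjusted P under 0.05, where the threshold alone corresponds to 1269. The 6 values of group IM10 lay wholly above those of group IM5 for 27 transcripts (0.106%) and wholly below them for 18 (0.0709%).

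Of the rises, 146 carried 1 gene name, 7 several and 189 none, and of the falls, 130 carried 1, 6 several and 194 none. The dimmest 30% of transcripts held 124 of the rises (36.3%) and 185 of the falls (56.1%). With every array set to the same median, 235 transcripts rose and 447 fell, so that the share of rises among the calls was 34.5%, against 50.9% as deposited. In each of the 12 fits that left out 1 pig, 107 of the rises and 101 of the falls were called again. Without IM10 replicate 2, 338 transcripts rose (1.33%) and 278 fell (1.1%), together 2.43%, of which 239 and 219 were among the calls above. The methods' t-test at the same thresholds called 242 rises (0.953%) and 229 falls (0.902%), together 1.86%.

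**Figure D1:**
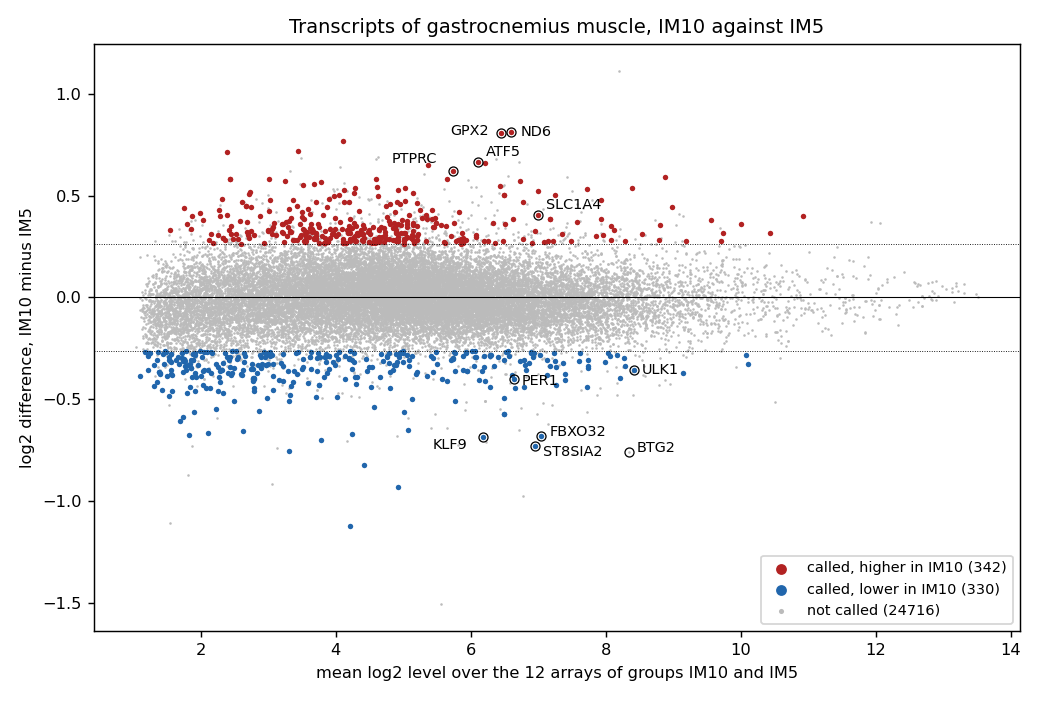
Log2 difference of each of 25388 transcripts, IM10 minus IM5, against its mean log2 level over the 12 arrays. Red points (342) rose and blue points (330) fell, grey points were not called, dotted lines mark a fold change of 1.2, and circled genes are described in the text.

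Among the named falls beyond 0.6 on the log2 scale were FBXO32 and KLF9. FBXO32, the muscle ubiquitin ligase also known as atrogin-1, had a lowest, median and highest log2 level of 6.18, 6.69 and 7.16 in group IM10, against 6.78, 7.41 and 7.86 in group IM5. In 4 of the 6 IM10 pigs it lay below every IM5 pig. The log2 difference was -0.68 (standard error 0.18, 1.61-fold lower, limma adjusted p = 0.955), and it was called in all 12 fits without 1 pig. In group CON its mean was 6.39, further from group IM5 than that of group IM10, which was 6.70.

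KLF9, a zinc finger transcription factor, had a lowest, median and highest log2 level of 5.16, 5.78 and 6.55 in group IM10, against 6.18, 6.63 and 6.78 in group IM5. It lay below every IM5 pig in 4 IM10 pigs, while IM10 replicates 1 and 3, at 6.55 and 6.24, lay within the range of group IM5. Its difference of means was -0.69 (standard error 0.20, limma adjusted p = 0.955), and the mean of group CON was 5.92. Of KLF9 and FBXO32, each was called in all 12 fits that left out 1 pig.

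Among 22 transcripts of FOXO factors and muscle atrophy genes, 2 fell, which were FBXO32 and ULK1, and none rose, while 20 did not pass. This is 9.09% falls, against 1.3% of all transcripts, and between 1 and 4 fell when 1 pig was left out, with 1 without IM10 replicate 2. The median log2 difference of the list was -0.12, against -0.003 over all transcripts, and 15 of 22 means were lower in group IM10. Leaving out 1 pig gave list medians between -0.14 and -0.07, with -0.07 without IM10 replicate 2. FOXO1 and FOXO3, the transcription factors at the head of this route, differed by -0.26 and -0.23 and were not called. FOXO1 fell by 0.29 to 0.32 without any 1 of IM10 replicates 3, 4 and 5 and IM5 replicates 3 and 6, and by 0.28 with either other scaling of the arrays (a common median or a further quantile normalization). FOXO3 fell by 0.28 without IM10 replicate 4 or IM5 replicate 2. PDK4, which restrains glucose oxidation, differed by -0.68 with a standard error of 0.53 and was not called, with values between 3.51 and 5.76 in group IM10 and between 4.29 and 7.82 in group IM5.

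Transcripts of the autophagy machinery were examined further after these values had been seen. Of 31 such transcripts, 4 fell and none rose, or 12.9% falls against 1.3% of all transcripts, and the list median was -0.08. Without IM10 replicate 2, only 1 of the 31 passed and the median was -0.07. The 4 that fell were ULK1, the kinase that starts autophagy, ATG14, which directs the lipid kinase complex to the forming membrane, ATG2B, which carries lipid into it, and ATG4D, a protease of the ATG8 family of proteins.

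ULK1 had a lowest, median and highest log2 level of 7.88, 8.22 and 8.72 in group IM10, against 8.15, 8.65 and 8.83 in group IM5. The ranges overlapped, with 3 IM10 pigs below every IM5 pig. The log2 difference was -0.36 (standard error 0.15). It was not called without any 1 of IM10 replicates 1, 2 and 6 and IM5 replicates 2, 3 and 5, with differences of -0.29 to -0.32.

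ATG14 differed by -0.30 (standard error 0.13), ATG2B by -0.29 (standard error 0.11) and ATG4D by -0.26 (standard error 0.11). ATG2B was not called without IM10 replicate 6 or IM5 replicate 6, where its differences were -0.23 to -0.26. ATG14 lost its call without any 1 of IM10 replicates 2, 4 and 6 and IM5 replicates 3, 4 and 6 (-0.23 to -0.30). ATG4D lost it without any 1 of IM10 replicates 2 and 4 and IM5 replicates 1 to 4 (-0.18 to -0.25) and after a further quantile normalization. MAP1LC3B, an ATG8-family protein of the autophagosome membrane, differed by -0.23 (standard error 0.08), under the fold threshold, and lay below every IM5 pig in 5 of 6 IM10 pigs.

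**Figure D2:**
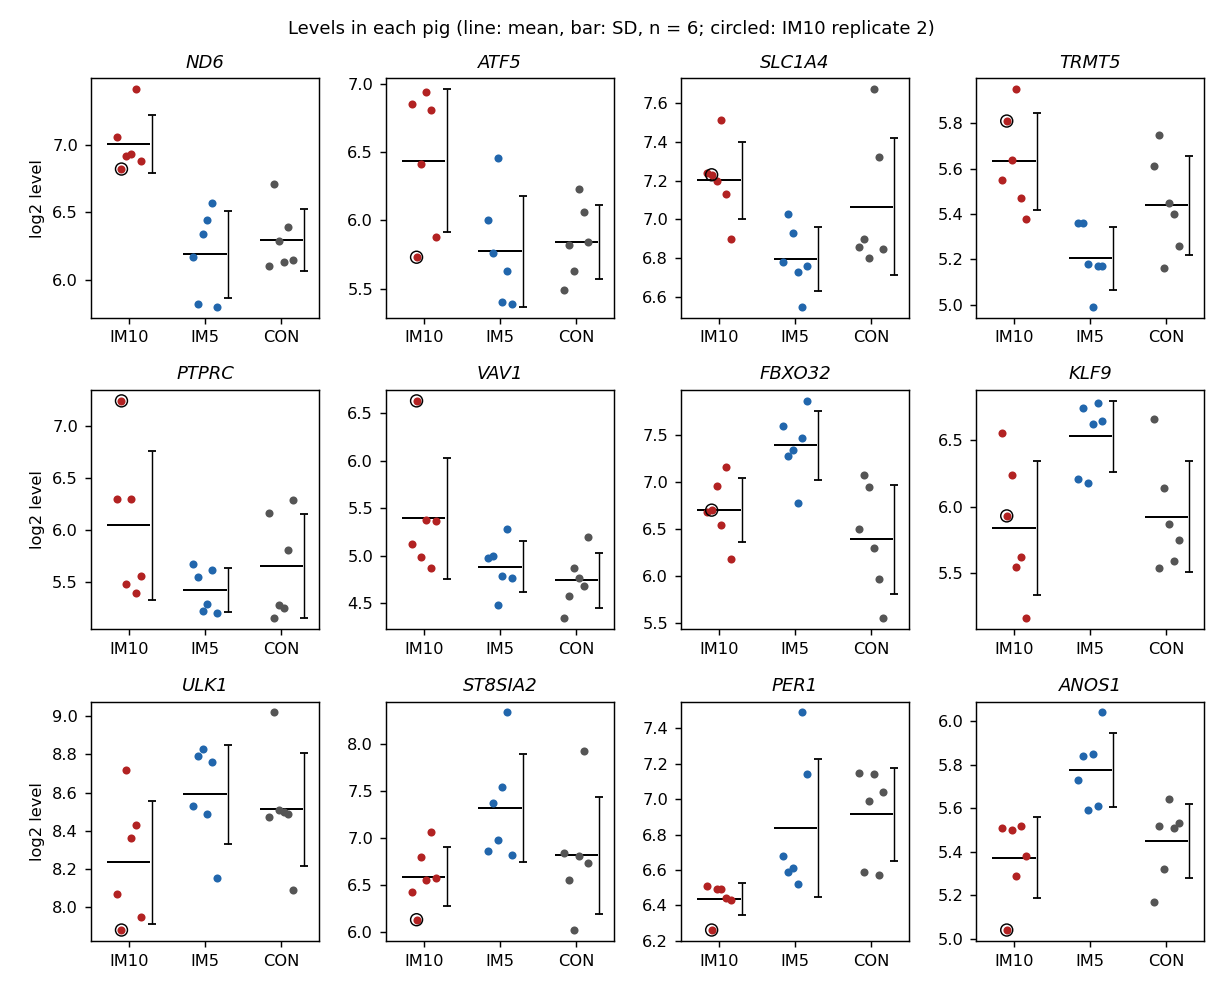
Log2 level of 12 named genes in each pig of groups IM10, IM5 and CON (n = 6 each), with the group mean as a line and 1 SD as a bar. ND6, TRMT5, ANOS1 and PER1 showed no overlap between groups IM10 and IM5, and IM10 replicate 2, circled, had the highest value for PTPRC (7.24) and VAV1 (6.63).

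Of the transcripts tied to amino acid supply, ATF5 and SLC1A4 rose. ATF5, a transcription factor of the amino acid and mitochondrial stress responses, had a lowest, median and highest log2 level of 5.73, 6.61 and 6.94 in group IM10, against 5.39, 5.70 and 6.46 in group IM5. The ranges overlapped, with 3 IM10 pigs above every IM5 pig. Its difference of means was 0.66 (standard error 0.23, limma adjusted p = 0.955), it stayed called in all 12 fits without 1 pig, and group CON had a mean of 5.84. ATF5 was the only rise among 22 transcripts of the ATF4 response (4.55%, against 1.35% of all), whose median difference was 0.05.

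SLC1A4, a carrier of neutral amino acids such as alanine and serine, had a lowest, median and highest log2 level of 6.90, 7.22 and 7.51 in group IM10, against 6.55, 6.77 and 7.03 in group IM5. In 5 of 6 IM10 pigs it was above every IM5 pig. The group means differed by 0.41 (standard error 0.11, limma adjusted p = 0.955), and it was called in all 12 fits that left out 1 pig. Group CON had a mean of 7.07, nearer to the 7.20 of group IM10 than to the 6.80 of group IM5. SLC1A4 was the only call among 25 transcripts of amino acid transporters (4.0% rises, against 1.35% of all). None of them fell, and their median difference was 0.04.

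Lists of amino acid breakdown and use held no call. These were 18 transcripts of branched-chain amino acid breakdown (median difference 0.01), 25 of arginine, polyamine and carnosine metabolism (0.03) and 35 of methionine, cysteine and glutathione metabolism (-0.02). In the last list 1 rose without IM10 replicate 2. GPX2, a glutathione peroxidase known from epithelia, stood outside that list and rose by 0.81 (standard error 0.38). Its values ran from 5.77 to 7.62 in group IM10 and from 4.87 to 7.37 in group IM5, so the groups overlapped widely. Its call was lost without any 1 of 9 pigs, namely IM10 replicates 1 to 5 and IM5 replicates 1, 2, 4 and 6, with differences of 0.57 to 0.85, and it was lost with either other scaling.

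ND6, the subunit of respiratory complex I that is encoded on the light strand of the mitochondrial genome, had the lowest adjusted p of all transcripts with a gene name. Its lowest, median and highest log2 level was 6.82, 6.93 and 7.41 in group IM10, against 5.8, 6.26 and 6.57 in group IM5. No IM10 pig overlapped with any IM5 pig. Group means differed by 0.81 (standard error 0.14, 1.76-fold, limma adjusted p = 0.521), and it ranged from 0.73 to 0.89 when 1 pig was left out.

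In group CON, ND6 had a mean of 6.30, close to the mean of 6.19 in group IM5 and below the 7.00 of group IM10. The 8 other transcripts of mitochondrially encoded genes were higher in group IM10 by mean, by 0.03 to 0.20, and none was called. They were brighter than ND6, with means in group IM10 from 9.69 to 13.335. Whether such brightness limits their differences was not tested. The list median was 0.07, or 0.05 with a common array median. Of these, the larger of 2 transcripts of COX2, the cytochrome c oxidase subunit 2, differed by 0.20 (standard error 0.08), and ND1, a complex I subunit of the heavy strand, by 0.07 (standard error 0.07). Among 35 nuclear oxidative phosphorylation transcripts none was called, and the median was -0.01. Without IM10 replicate 2 it was 0.08, and 1 rose.

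Transcripts of immune cells and of antigen presentation had list medians above 0, and that of the macrophage list depended most on IM10 replicate 2. In bulk muscle, a change in the number of immune cells and a change in RNA per cell cannot be told apart. Of 30 macrophage and monocyte transcripts, 28 had the higher mean in group IM10 and the list median was 0.28, and 2 rose, PLD4 and VAV1 (6.67%, against 1.35% of all transcripts). Between 1 and 4 rose when 1 pig was left out. The mean level of the list was 6.64 in IM10 replicate 2, against 5.14 to 5.53 in the other IM10 pigs, 5.02 to 5.52 in group IM5 and 4.95 to 5.55 in group CON. Without this pig the list median was 0.06 and PLD4 was the only call.

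Single macrophage genes showed the same pig. LYZ, the bacteria-digesting enzyme lysozyme, was at 7.28 in IM10 replicate 2, against 2.84 to 3.70 in the other IM10 pigs and at most 4.43 in group IM5. OLR1, a scavenger receptor for oxidized lipoprotein, was at 7.13 there, against 4.37 to 4.82 in the other IM10 pigs and at most 4.63 in group IM5. Neither was called, with differences of 0.69 each, which were -0.01 and 0.26 without this pig. VAV1, an exchange factor that signals below immune receptors, rose by 0.51 (standard error 0.24), and by 0.26, not called, without IM10 replicate 2. It was also not called without any 1 of IM10 replicates 4 and 6 and IM5 replicates 1 to 4 and 6 (0.43 to 0.53) or with either other scaling.

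PLD4, an endosomal nuclease of macrophages and dendritic cells, depended less on this pig. Its lowest, median and highest log2 level was 4.80, 5.03 and 5.35 in group IM10, against 4.47, 4.68 and 4.83 in group IM5. In 5 IM10 pigs it lay above every IM5 pig. It rose by 0.37 (standard error 0.11), or 0.31 without IM10 replicate 2, and it was called in all 12 fits without 1 pig.

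Among 26 lymphocyte transcripts 2 rose, or 7.69% against 1.35% of all, and none fell, with a list median of 0.10, or 0.07 without IM10 replicate 2. Between 0 and 6 rose when 1 pig was left out, and 1 without IM10 replicate 2. The 2 rises were PTPRC, the leukocyte surface phosphatase CD45, and CD3E, a chain of the T cell receptor complex. PTPRC had a lowest, median and highest log2 level of 5.39, 5.93 and 7.24 in group IM10, against 5.20, 5.42 and 5.67 in group IM5. It lay above every IM5 pig in IM10 replicates 1, 2 and 4, while the other 3 IM10 pigs lay within the range of group IM5. The log2 difference was 0.62 (standard error 0.25) and 0.38, still called, without IM10 replicate 2. It was not called without IM10 replicate 1 or 4 or without IM5 replicate 3 or 6 (0.57 to 0.58).

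CD3E rose by 0.36 (standard error 0.15), and by 0.28, not called, without IM10 replicate 2. Its call was also lost without IM10 replicate 4 or any 1 of IM5 replicates 4, 5 and 6 (0.26 to 0.34). Further immune genes were picked after their values had been seen, so their calls are no independent evidence. KLRK1, EOMES, SKAP1 and CCL5, described next, were called in all 12 fits that left out 1 pig. The cytokine IL10, picked with them, rose by 0.32 (standard error 0.15) but was called in only 4 of those fits. CD4, also picked then, differed by 0.24 and was not called with all 12 pigs. KLRK1, the activating receptor NKG2D, was at 3.11 to 4.37 in group IM10 and at 2.74 to 3.42 in group IM5, with a difference of 0.72 (standard error 0.21) and 4 IM10 pigs above every IM5 pig. EOMES, a transcription factor of cytotoxic lymphocytes, rose by 0.41 (standard error 0.15), the adaptor SKAP1 by 0.36 (standard error 0.13) and the chemokine CCL5 by 0.35 (standard error 0.13), which was not called when all 18 arrays shared 1 fit. KLRK1, EOMES and SKAP1 are among the dimmest 30% of transcripts. The CON mean of KLRK1 was 3.655, nearer to group IM10, while those of EOMES, SKAP1 and CCL5 were nearer to group IM5. Not every lymphocyte marker ran this way, since CD8B differed by 0.003, the granule protease GZMA by -0.17 and -0.04 in its 2 transcripts and CD3G by -0.19. Of the 26 transcripts of the lymphocyte list, 18 had the higher mean in group IM10 and 8 the lower.

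The largest share of rises in any list lay in MHC class I and antigen presentation, a list drawn up after the values had been seen. Of 20 transcripts 4 rose (20%, against 1.35% of all) and none fell, 18 had the higher mean in group IM10, and the median was 0.22. They were 2 transcripts of B2M, the light chain of MHC class I, and the heavy chain genes SLA-3 and SLA-7. These swine leukocyte antigen genes are near copies of each other, so which gene a probe reads is uncertain. The 20 transcripts of the list stand for 16 genes, so the 4 rises and 18 higher means are not all independent.

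B2M had a lowest, median and highest log2 level of 9.19, 9.92 and 10.13 in group IM10, against 9.26, 9.36 and 9.55 in group IM5. In 4 IM10 pigs it lay above every IM5 pig, and in IM10 replicate 5 below every one of them. The difference was 0.38 (standard error 0.15), and 0.30 to 0.33, not called, without IM10 replicate 4 or 6. In group CON it ran from 9.21 to 10.09, which spans nearly the whole range of group IM10.

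The other B2M transcript rose by 0.36, SLA-3 by 0.37 (standard error 0.15) and SLA-7 by 0.31 (standard error 0.13). These 3 lost their calls without any 1 of 6 or 7 pigs. They were IM10 replicates 1, 2, 4 and 6 and IM5 replicates 2, 4 and 5 for B2M (0.28 to 0.35), IM10 replicates 1, 2 and 6 and IM5 replicates 2, 5 and 6 for SLA-3 (0.30 to 0.35), and IM10 replicates 1, 3, 4 and 6 and IM5 replicates 1, 2 and 4 for SLA-7 (0.25 to 0.29). The peptide transporter subunits TAP1 and TAP2 had means higher by 0.27 in both TAP1 transcripts and by 0.20 and 0.24 in those of TAP2, and were not called. Both TAP1 transcripts had the same difference, standard error and group means, so they may not be separate measurements. SLA-5 differed by -0.33 and was not called.

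Over fits that left out 1 pig, between 1 and 11 of the 20 antigen presentation transcripts rose, and the list median lay between 0.16 and 0.28. Without IM10 replicate 2, 2 rose and 1 fell, and with either other scaling 4 rose and 1 fell. Pig by pig, the mean level of this list ran from 6.26 to 6.82 in group IM10, from 6.26 to 6.41 in group IM5 and from 6.22 to 6.83 in group CON. The narrowest spread was that of group IM5, and group CON covered the range of group IM10. Among 34 interferon-stimulated transcripts none was called, and their median was 0.06.

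**Figure D3:**
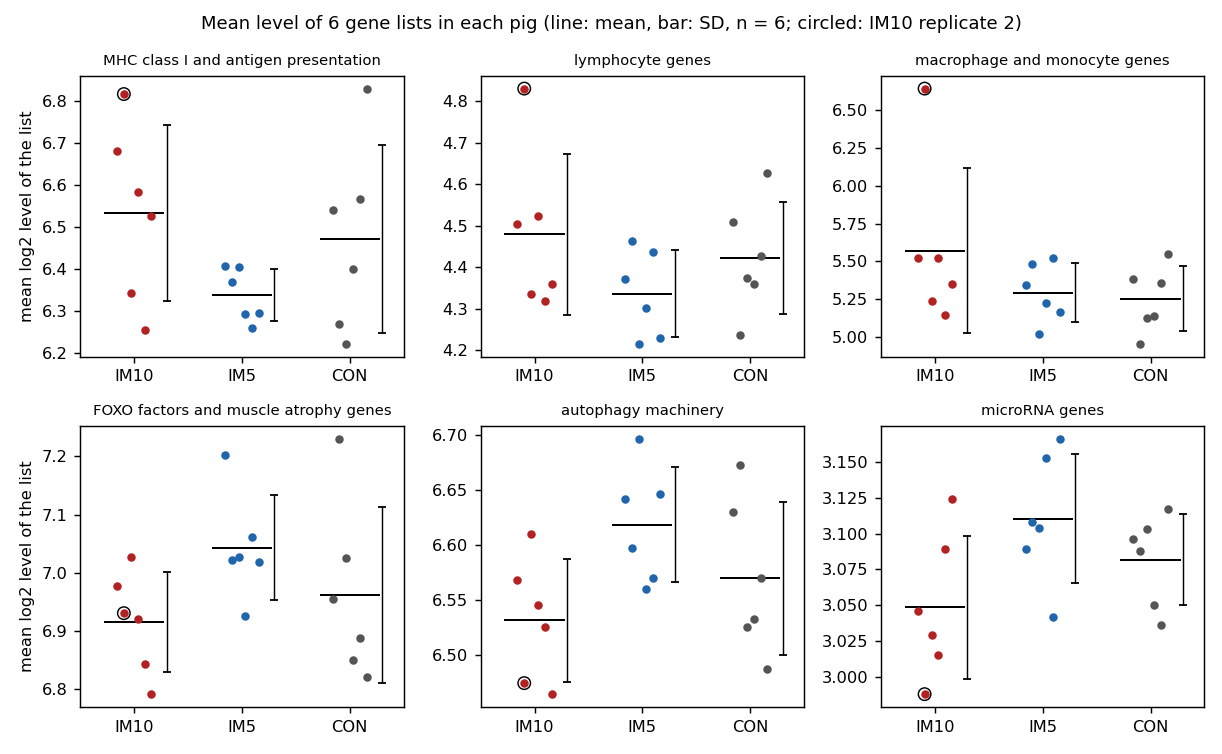
Mean log2 level of 6 gene lists in each pig of groups IM10, IM5 and CON, with the group mean as a line and 1 SD as a bar (n = 6). IM10 replicate 2, circled, stood at 6.64 for macrophage and monocyte genes, above the other 17 pigs, and at 4.83 for lymphocyte genes.

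Of 18 endothelial transcripts 2 rose (11.1%, against 1.35% of all) and none fell, and the list median was 0.09. Between 0 and 4 rose when 1 pig was left out. They were FLT1 and KDR, both receptors for vascular endothelial growth factor. FLT1 had a lowest, median and highest log2 level of 5.78, 5.92 and 6.40 in group IM10, against 5.59, 5.69 and 5.86 in group IM5. The 2 highest values, 6.39 and 6.40, belonged to IM10 replicates 1 and 3. The difference was 0.32 (standard error 0.12), and 0.24 to 0.25, not called, without either of these pigs.

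KDR rose by 0.30 (standard error 0.12), and a further KDR transcript differed by 0.30 and was not called. The call was lost without IM10 replicate 1, 3 or 6 or IM5 replicate 5 (0.22 to 0.28). The vessel markers PECAM1 and VWF differed by 0.09 and 0.06 and were not called. ANGPT1, the vessel-stabilizing ligand of the TEK receptor, fell by 0.36 (standard error 0.17). It was not called without any 1 of IM10 replicates 2 to 6 and IM5 replicates 1, 5 and 6, with differences of -0.27 to -0.37.

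Of 27 cell proliferation transcripts 22 had the higher mean in group IM10, as did 49.5% of all transcripts. In this list 1 rose (3.7%, against 1.35% of all), and between 0 and 3 when 1 pig was left out. The list median was 0.10, or 0.02 without IM10 replicate 2, in which 19 of the 27 were at their highest of the 12 pigs. The rise was KIF20A, a kinesin of cell division, with 0.28 (standard error 0.12). It was not called without any 1 of IM10 replicates 1, 2, 4 and 6 and IM5 replicates 3 to 5 (0.21 to 0.28) or with a common median. Outside the list, LMNB1, the nuclear envelope protein lamin B1, rose by 0.50 (standard error 0.17) and HELLS, a chromatin remodeller of dividing cells, by 0.39 (standard error 0.12), both called in all 12 fits without 1 pig. HELLS was picked after its values had been seen, as was the dim transcript CDC25C. CDC25C rose by 0.295 (standard error 0.09) but was not called without IM10 replicate 2 or IM5 replicate 2 (0.25). LMNB1 was at 3.80 to 4.57 in group IM10, 3.27 to 4.23 in group IM5 and 4.08 to 4.81 in group CON, so group IM5 had the lowest mean.

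The called fall with the largest difference among named genes was ST8SIA2. This gene, which encodes the enzyme that adds polysialic acid to the neural cell adhesion molecule NCAM, had a lowest, median and highest log2 level of 6.13, 6.56 and 7.06 in group IM10, against 6.82, 7.18 and 8.34 in group IM5. In 5 IM10 pigs it lay below every IM5 pig. The log2 difference was -0.73 (standard error 0.23, limma adjusted p = 0.955), or -0.53 to -0.83 when 1 pig was left out, always called. GFRA1, a receptor for glial cell line-derived neurotrophic factor, fell by 0.45 (standard error 0.16), with IM10 replicate 2 the lowest at 5.83, and by 0.32, still called, without this pig.

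SMYD1, a methyltransferase needed for sarcomere assembly, had a lowest, median and highest log2 level of 9.69, 9.90 and 10.33 in group IM10, against 9.98, 10.31 and 10.48 in group IM5. In 4 IM10 pigs it was below every IM5 pig. The difference was -0.33 (standard error 0.12), and it was called in all 12 fits without 1 pig. HSPB2, a small heat shock protein of muscle, was at 7.79 to 7.94 in group IM10 and at 7.83 to 8.42 in group IM5, with a difference of -0.32 (standard error 0.10), or -0.26, not called, without IM5 replicate 2.

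Of 25 calcium handling and excitation transcripts, 1 fell (4.0%, against 1.3% of all) and 1 rose (4.0%, against 1.35%), and when 1 pig was left out 0 or 1 did so in either direction. ORAI1, the store-operated calcium channel, fell by 0.28 (standard error 0.11). Its call was lost without any 1 of IM10 replicates 2 and 5 and IM5 replicates 1, 2 and 5 (-0.23 to -0.26). KCNJ2, the inward rectifier potassium channel, rose by 0.28 (standard error 0.13), and not without any 1 of IM10 replicates 1 to 4 and IM5 replicates 1, 2 and 5 (0.21 to 0.29) or with a common array median. SLC8A3, a sodium-calcium exchanger of muscle and brain, stood outside this list and fell by 0.31 (standard error 0.11), or by 0.25, not called, without IM5 replicate 1. The release channel RYR1, with 2 transcripts at -0.02 and 0.04, and the calcium pump ATP2A1, at 0.06, were not called.

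SMYD1 and SLC8A3 were named after their values had been seen, as were MBNL2, a splicing factor, with -0.27 (standard error 0.10), and TEAD4, the transcription factor partner of YAP, with -0.27 (standard error 0.09). MBNL2 was not called without IM10 replicate 1 or 6 or IM5 replicate 5 (-0.21 to -0.25), and TEAD4 not without any 1 of IM10 replicates 2 and 6 and IM5 replicates 1, 3 and 6 (-0.23 to -0.26). Both lost their calls after a further quantile normalization. Of 15 nerve, Schwann cell and neuromuscular junction transcripts 1 fell (6.67%, against 1.3% of all, and 0 without IM10 replicate 2), GDAP1, a dim transcript of a mitochondrial protein of nerve, with -0.36 (standard error 0.16). Its call was lost without any 1 of IM10 replicates 1, 2 and 6 and IM5 replicates 2, 4 and 5 (-0.27 to -0.35).

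PER1, a repressor of the circadian clock, was the only call among 16 clock transcripts (6.25% falls, against 1.3% of all). Its lowest, median and highest log2 level was 6.26, 6.47 and 6.51 in group IM10, against 6.52, 6.65 and 7.49 in group IM5. The groups did not overlap, but the highest IM10 pig and the lowest IM5 pig were only 0.01 apart by these values. The difference was -0.40 (standard error 0.15), called in all 12 fits without 1 pig and -0.27 at its smallest. Group CON had a mean of 6.91, above both groups, and 6.57 as its lowest value. DBP, a clock-driven transcription factor, differed by -0.42 and was not called, and the core activators CLOCK and ARNTL by 0.03 and 0.02.

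MicroRNA genes, which encode the precursors of short RNAs that silence mRNAs, fell more often than they rose. They were grouped after their values had been seen. Of 175 such transcripts 8 fell (4.57%, against 1.3% of all) and 1 rose (0.571%, against 1.35%), and 112 had the lower mean in group IM10. The list median was -0.05, and between 5 and 11 fell when 1 pig was left out. The arrays measured these transcripts weakly: 132 of 175 are among the dimmest 30%, where falls were in general more frequent than rises. The dimmest 30% held 185 of the 330 falls and 124 of the 342 rises, so 1.3% understates the share of falls among dim transcripts. Of the microRNA genes outside the dimmest 30%, 1 fell and 0 rose.

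MIRLET7G, of the let-7 family, had a lowest, median and highest log2 level of 2.72, 3.06 and 3.35 in group IM10, against 3.16, 3.59 and 3.90 in group IM5. In 4 IM10 pigs it was below every IM5 pig. The difference was -0.51 (standard error 0.13, limma adjusted p = 0.955). MIR199A-1 fell by 0.44 (standard error 0.13) and MIR181B-2 by 0.36 (standard error 0.12), and these 3 were called in all 12 fits without 1 pig. MIR219A fell by 0.29 (standard error 0.08), or by 0.25, not called, without IM5 replicate 1, and 0.23 after quantile normalization.

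The other falls were MIR24-2 with -0.41 (standard error 0.19), MIR664 with -0.37 (standard error 0.16), MIR99A with -0.30 (standard error 0.12) and MIR1307 with -0.28 (standard error 0.12). Each lost its call without any 1 of several pigs. For MIR24-2 these were IM10 replicates 2 to 6 and IM5 replicates 3, 5 and 6 (-0.33 to -0.44), with a loss after quantile normalization too, and for MIR664 IM10 replicates 2, 3 and 5 and IM5 replicates 3 and 4 (-0.27 to -0.36). For MIR99A they were IM10 replicates 1 and 5 and IM5 replicates 4 to 6 (-0.21 to -0.28), and for MIR1307 IM10 replicates 2, 3, 4 and 6 and IM5 replicates 1 and 6 (-0.22 to -0.28). MIR30D was the only rise, and its groups did not overlap, with 3.56 to 4.02 in group IM10 against 3.30 to 3.53 in group IM5. Its difference was 0.30 (standard error 0.09), or 0.24, not called, without IM10 replicate 6.

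**Figure D4:**
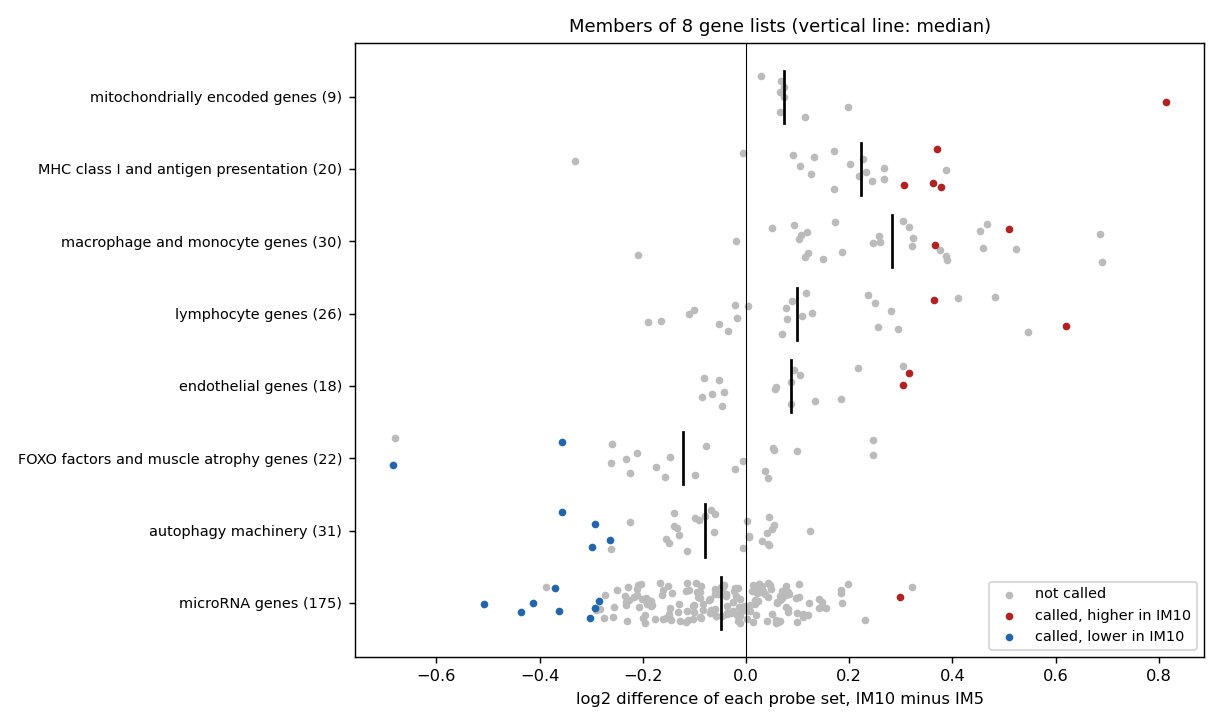
Log2 difference, IM10 minus IM5, of each transcript in 8 gene lists, with the list median as a vertical line and the number of transcripts in brackets. Red points rose and blue points fell in group IM10: ND6 stood at 0.81 apart from the other mitochondrially encoded genes, and the 8 falls of microRNA genes lay between -0.51 and -0.28.

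Further named transcripts had no overlap between the groups. TRMT5, a tRNA methyltransferase, was at 5.38 to 5.95 in group IM10 and at 4.99 to 5.36 in group IM5. Its difference was 0.43 (standard error 0.11, limma adjusted p = 0.955), a further TRMT5 transcript rose by 0.41, and group CON lay between both with a mean of 5.44. ANOS1, a secreted matrix protein known from the guidance of olfactory axons, was at 5.04 to 5.52 in group IM10 and at 5.59 to 6.04 in group IM5, with a difference of -0.40 (standard error 0.10, limma adjusted p = 0.955). TRMT5 and ANOS1 stayed called in all 12 fits that left out 1 pig.

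Others separated by less. DMXL1, which helps assemble the proton pump of acidic vesicles, was at 5.98 to 6.28 in group IM10 against 6.30 to 6.64 in group IM5 (-0.29), and was not called without IM10 replicate 2 or IM5 replicate 4 (-0.25 to -0.26). NFRKB, of the INO80 chromatin remodelling complex, was at 4.70 to 4.95 against 5.00 to 5.39 in group IM5 (-0.27), and was not called without IM10 replicate 5, IM5 replicate 4 or IM5 replicate 6 (-0.22 to -0.24). The dim transcript PLSCR5, of the phospholipid scramblase family, was at 1.51 to 1.70 against 1.71 to 2.47 in group IM5 (-0.31), or -0.20, not called, without IM5 replicate 3. ARHGAP9, a GTPase-activating protein of blood cells, was at 4.41 to 4.70 against 4.09 to 4.40 in group IM5 (0.28), and lost its call without IM10 replicate 1 or 2 or IM5 replicate 3 or 4 (0.25 to 0.26) and with either other scaling. RHBDF2, a membrane protein that brings a signalling protease to the cell surface, was at 5.89 to 6.35 against 5.48 to 5.87 in group IM5 (0.26), or 0.19, not called, without IM10 replicate 2.

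RHBDF2 was also not called without IM10 replicate 6 or IM5 replicate 1 or 4 (0.21 to 0.26) or with a common median. Separation also occurred without a call, where the fold change or P did not pass. This held for the growth-related protein TPT1, with 5.63 to 5.82 in group IM10 against 5.30 to 5.61 in group IM5, for the adaptor SLA2 of lymphocytes, with 5.24 to 5.33 against 4.88 to 5.22, and for ARHGAP30, a GTPase-activating protein, whose value of 5.19 in IM10 replicate 2 stood above 4.32 to 4.37 in the other IM10 pigs. TPT1 rose by 0.27 without IM10 replicate 4, IM5 replicate 1 or IM5 replicate 6, and SLA2 by 0.26 to 0.29 without any 1 of IM5 replicates 1, 5 and 6. The ribosomal protein RPS25 was at 7.62 to 7.76 in group IM10 against 7.82 to 8.03 in group IM5, the lysosome adaptor PLEKHM2 at 7.96 to 8.13 against 8.16 to 8.41, and BCL7B, of a chromatin remodelling complex, at 6.45 to 6.94 against 6.95 to 7.15. The transcript with the lowest P of all carries no gene name. It was at 4.79 to 5.01 in group IM10 against 4.08 to 4.61 in group IM5, with a difference of 0.58 (standard error 0.09, limma adjusted p = 0.227).

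The remaining named rises and falls with the largest differences were of mixed function. ENAH, which promotes actin filament growth, rose by 0.53 (standard error 0.23), with 7.56 to 8.24 in group IM10 and 6.75 to 8.32 in group IM5. Its call was lost without any 1 of IM10 replicates 1, 3, 4 and 5 and IM5 replicates 1, 4, 5 and 6 (0.39 to 0.52). PMP2, a fatty acid-binding protein of myelin, rose by 0.50 (standard error 0.15) and was called in all 12 fits without 1 pig. WDFY4, needed for antigen cross-presentation by dendritic cells, rose by 0.47 (standard error 0.19), but was not called without IM10 replicate 2 (0.33) or IM5 replicate 3 (0.40).

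Among the falls, COLGALT2, which attaches galactose to collagen, was at 4.04 to 4.74 in group IM10 against 4.35 to 5.36 in group IM5 (-0.54, standard error 0.17). ATP6V0D1, a subunit of the vacuolar proton pump that acidifies lysosomes, was at 6.61 to 7.59 against 7.14 to 7.81 in group IM5 (-0.43, standard error 0.16). The rhomboid protease RHBDL2 fell by 0.42 (standard error 0.15), the kinesin KIF21A by 0.41 (standard error 0.14) and TCTN1, a protein of the cilium base, by 0.41 (standard error 0.14). These 5 were called in all 12 fits without 1 pig. VIT, the matrix protein vitrin, fell by 0.45 (standard error 0.19), but was not called without any 1 of IM10 replicates 2, 5 and 6 and IM5 replicates 1, 2 and 6 (-0.33 to -0.44).

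The dim kinase transcript DYRK3, called in all 12 such fits, fell by 0.41 (standard error 0.13). It was the only call among 20 transcripts of CLK kinases, splicing and cold-inducible RNA-binding genes (5.0% falls, against 1.3% of all). None of these rose, but 15 of the 20 had the higher mean in group IM10, as did 49.5% of all transcripts. The list median was 0.11, and between 0.08 and 0.14 when 1 pig was left out. BCO2, a carotenoid-cleaving oxygenase and likewise dim, was the only call among 23 retinoid transcripts (4.35% falls, against 1.3% of all), with -0.27 (standard error 0.11). It was not called without any 1 of IM10 replicates 2, 3 and 4 and IM5 replicates 4 and 5 (-0.18 to -0.26), or after quantile normalization. HPRT1 and APRT, the enzymes of purine salvage, rose by 0.39 (standard error 0.14) and 0.32 (standard error 0.10) and were named after their values had been seen. APRT was not called without IM5 replicate 1 (0.25).

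Many gene lists of muscle held no call in either direction. This was so for 14 slow-fibre and 13 fast-fibre contractile transcripts, with medians of 0.03 and -0.002, for 20 of glycolysis (-0.02), 18 of glycogen metabolism (-0.06), 28 of fatty acid oxidation (-0.002), 28 of adipocytes (0.05) and 14 of cholesterol synthesis (0.05). The slow-fibre list varied widely from pig to pig, with mean levels of 8.35 to 10.27 in group IM10 and 8.13 to 10.46 in group IM5. Its median difference was 0.12 without IM10 replicate 2. No call was found either among 23 growth axis transcripts (-0.04), 15 of developing and regenerating muscle (-0.05), 20 targets of actin-SRF and YAP (0.01) or 25 proteasome subunits (-0.02). The same held for 38 of fibroblasts and matrix (-0.01), 15 of chitin handling (0.08, or 0.009 without IM10 replicate 2), 12 of neutrophils and mast cells (0.07) and 10 of red blood cells (0.01). Without IM10 replicate 2, however, 2 fibroblast and matrix transcripts fell (list median -0.06) and 1 neutrophil and mast cell transcript rose (0.02). Single differences in the actin-SRF and YAP list ran from -0.41 to 1.11. When 1 pig was left out, between 0 and 2 of its transcripts rose and 0 or 1 fell. Among 31 heat shock and chaperone transcripts HSPB2 was the only call (3.23% falls, against 1.3% of all), and the median was -0.02.

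**Figure D5:**
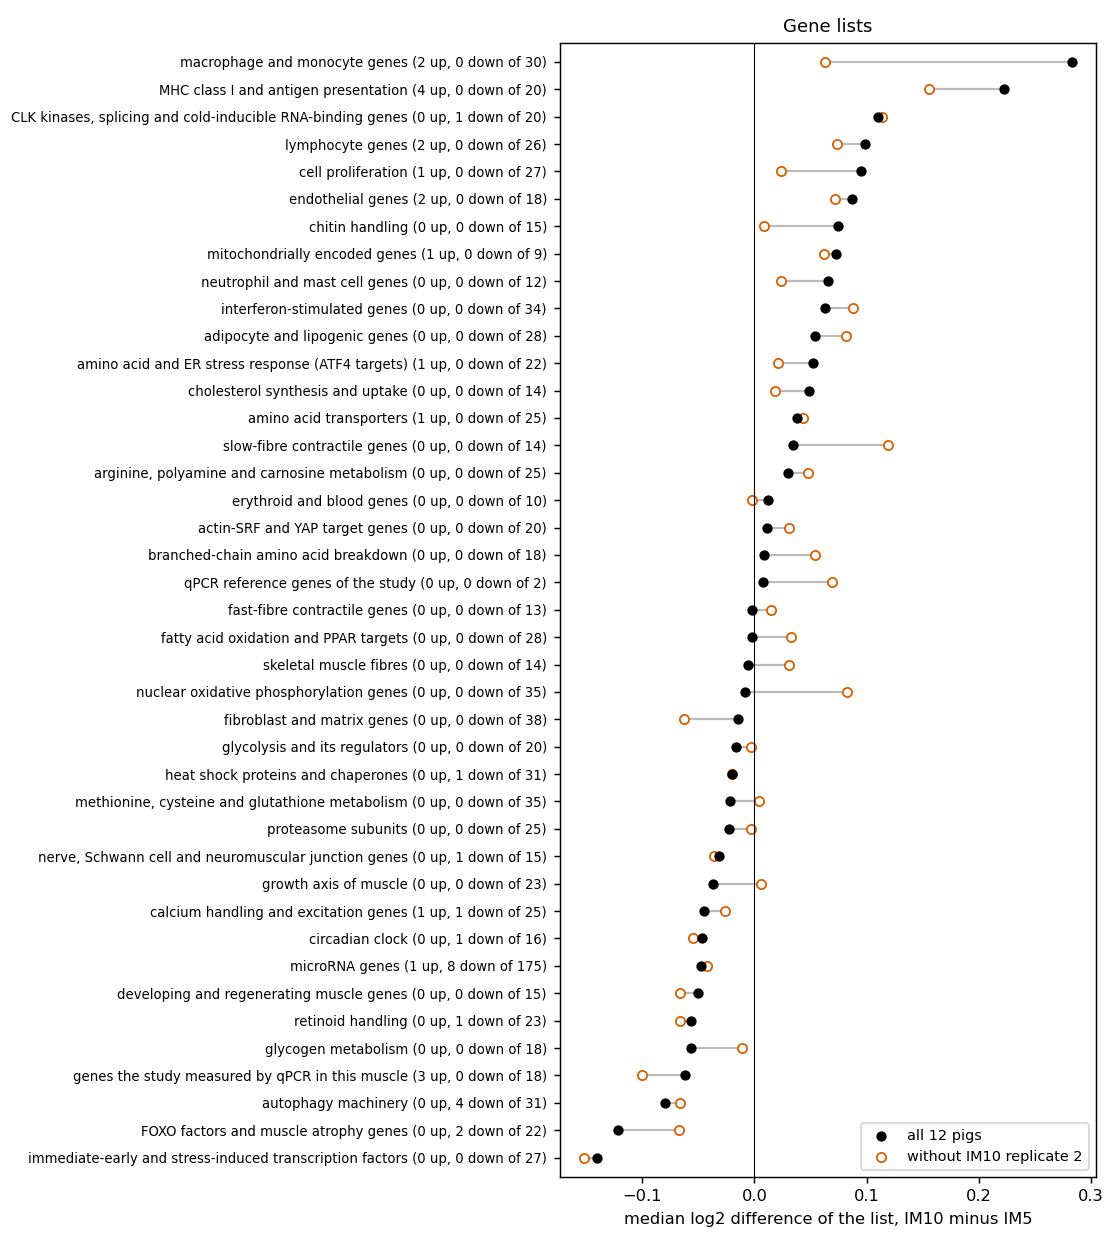
Median log2 difference, IM10 minus IM5, of 41 gene lists with all 12 pigs (filled) and without IM10 replicate 2 (open), with the number of transcripts that rose and fell in brackets. The macrophage and monocyte list moved most, with a median of 0.28 for all pigs and 0.06 without this pig.

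Immediate-early genes, which cells switch on within minutes of a stimulus, had the lowest list median, -0.14, with 22 of 27 means lower in group IM10 and no call. Their differences were set against wide spreads. BTG2, an antiproliferative factor of this class, was at 7.09 to 9.45 in group IM10, 7.70 to 9.75 in group IM5 and 9.61 to 10.31 in group CON, with a difference between the insect meal groups of -0.76 (standard error 0.41). FOS and JUN, the partners in the AP-1 factor, differed by -0.72 (standard error 0.38) and -0.48 (standard error 0.33), and ATF3, a stress-induced repressor, by -0.10 (standard error 0.39). BTG2 and FOS were called without some pigs. Without IM10 replicate 6, IM5 replicate 5 or IM5 replicate 6, BTG2 fell by 0.96 to 1.06, and without IM10 replicate 6 or IM5 replicate 3 or 5, FOS fell by 0.90 to 0.93.

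The transcript shared in the annotation by LOC100512656 and LOC100626199 was not called. Its values were 5.46 to 8.79 in group IM10, 4.63 to 8.55 in group IM5 and 3.90 to 7.73 in group CON. IM10 replicate 6 and IM5 replicate 2, with 5.46 and 4.63, lay below the other pigs of their groups, and the difference of 0.30 had a standard error of 0.63. A list of genes measured by qPCR in this muscle held 18 transcripts, of which 3 rose, ATF5, VAV1 and the dim transcript OLFM3, and none fell. This is 16.7% rises, against 1.35% of all transcripts. Only 1 of the 18 rose without IM10 replicate 2, and only 1 with either other scaling. OLFM3, a secreted olfactomedin protein, rose by 0.38 (standard error 0.18), but not without any 1 of IM10 replicates 1 to 5 and IM5 replicates 4 to 6 (0.27 to 0.40) or with either other scaling. The study chose these genes on arrays that include group IM10, so their count is no independent evidence. Neither of the 2 reference gene transcripts was called.

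Group CON was not used to choose any call, and its mean lay between those of both insect meal groups for 292 of the 342 rises and 282 of the 330 falls. Over all transcripts it lay between for 36.5%. Calls were chosen for a wide gap between the insect meal groups, which makes a position between them more frequent. The CON mean was nearer to group IM10 than to group IM5 for 154 of the rises (45.0%) and 155 of the falls (47.0%), against 46.5% of all transcripts. It lay beyond group IM10 for 19 rises and 24 falls, FBXO32 and ENAH among them, and beyond group IM5 for 31 rises and 24 falls, PER1 and SMYD1 among them.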

How the data were processed

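RNA of gastrocnemius muscle was hybridised to the Affymetrix Porcine Gene 1.0 Sense Target array, 1 array per pig. Values are log2 levels as the authors deposited them, made in Affymetrix Expression Console by RMA, which corrects background, brings arrays to 1 distribution and sums up probes, and they have 2 decimals. They were used as deposited. Scanner intensities, the liver and the qPCR were not analysed here.

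Transcripts were named through the annotation held for this platform: 13327 transcripts carried 1 name (13324 of them matched a current gene record of Sus scrofa), 357 several and 11704 none. Of all transcripts, 977 shared identical values with another, in 482 groups.

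The 6 arrays of group IM10 and the 6 of group IM5 were fitted in limma 3.58.1 (R 4.3.3) with group means only, 10 residual and 5.14 prior degrees of freedom. Fold changes are differences of mean log2 values, IM10 minus IM5. Calls needed a fold change beyond 1.2 together with P under 0.05 before adjustment. The Benjamini-Hochberg method gave the adjusted p of limma's test. That of every called transcript named in the text was 0.955, except ND6 and the unnamed transcript. Gene lists (38, and 3 added after values had been seen) are described by counts and medians, without a test.

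The comparison, its gene lists and the genes of special interest were chosen with earlier results of these data known. The text names the 10 rises and 10 falls of greatest size among transcripts with 1 name outside the dimmest 30% (1 of these rises is not reported here), up to 4 called members of each list, any transcript past an adjusted p of 0.05, up to 8 transcripts per direction without overlap, called microRNA genes, called qPCR genes, and BTG2, ATF3, OLR1, VAV1 and LOC100512656. LOC-numbered genes were to be named where the reference tables describe them, which gave none. All other named genes were chosen after their values had been seen. Alternatives were a fit of all 18 arrays, the methods' t-test, the replicate number as a block, no dim transcripts, a further quantile normalization, a common array median (these 2 are called the other scalings), array weights, a trended and robust prior, 1 transcript per gene, and leaving out each pig. The procedure was tested on simulated data. Python 3.11.15 with numpy 2.4.6, pandas 2.3.3 and matplotlib 3.10.9 was used for counts and plots.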

Additional observations from a re-analysis of the deposited data

Results flagged for a closer look

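In 22 of 198 groups of 6 pigs that were tested, 1 pig stood far from the other 5. A rate of 1 in 20 is 9.9 here, but it holds for independent groups that were not picked by value. Many of these transcripts were picked by value and all groups come from the same pigs, so an excess was not tested. Of the 22, 8 lay in IM10 replicate 2.

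In IM10 replicate 2, the mean of the macrophage and monocyte list was 6.64 and that of the chitin handling list, which includes chitinases of macrophages, 5.31. In the same pig OLR1 was at 7.13, VAV1 at 6.63, RHBDF2 at 6.35 and ARHGAP30 at 5.19, each the highest of group IM10, while GFRA1 at 5.83 and PER1 at 6.26 were the lowest. Elsewhere in group IM10, the interferon-stimulated list was at 6.02 in replicate 1, against 5.31 in the next pig of the group, and HSPB2 was highest in replicate 1 at 7.94. NFRKB was lowest in replicate 5 at 4.70, and BCL7B and the transcript of LOC100512656 were lowest in replicate 6, at 6.45 and 5.46.

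In group IM5, replicate 1 was highest for the lists of nuclear oxidative phosphorylation (9.10), fatty acid oxidation (7.46), branched-chain amino acid breakdown (7.44) and qPCR reference genes (11.48). For the same lists, in this order, replicate 1 was also the highest of group IM10 (9.105, 7.34, 7.361 and 11.535). It was likewise the highest of group CON (8.877, 7.253, 7.337 and 11.405), and the cause was not tested. In IM5 replicate 6 the lists of glycolysis (8.54) and retinoid handling (4.895) were lowest and that of fibroblasts and matrix (8.45) was highest. PLSCR5 was highest in IM5 replicate 3 at 2.47, and the LOC100512656 transcript lowest in IM5 replicate 2 at 4.63.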

How the results depend on the processing

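No call passed the correction for multiple testing with all 12 pigs, and without IM5 replicate 5 a single transcript did (1, adjusted p = 0.0375 in limma). Counts of rises and falls were 363 and 335 with all 18 arrays in 1 fit, 242 and 229 with the methods' t-test (1287 at an unadjusted P under 0.05, 0 after Benjamini-Hochberg), 313 and 298 after quantile normalization, and 215 and 145 of 17769 without the dimmest 30%. They were 135 and 126 of 12365 with 1 transcript per gene, where fewer were tested, 335 and 337 with array weights, 345 and 324 with a trended and robust prior, and 336 and 322 with identical transcripts counted once. Without 1 pig, rises ranged from 321 to 434 and falls from 278 to 467. Transcripts without overlap numbered 15 above and 36 below with a common median, and 43 to 58 above and 32 to 62 below with 1 pig fewer, where fewer values need to separate.

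Differences changed sign for ATF3, with 0.01 without IM10 replicate 4, 0.07 without IM10 replicate 5, 0.05 without IM5 replicate 1 and 0.16 without IM5 replicate 2 (range -0.43 to 0.16). They did so for the LOC100512656 transcript (-0.27 without IM5 replicate 2, range -0.27 to 0.76) and LYZ (-0.006 without IM10 replicate 2, range -0.006 to 0.94). The cause was not tested. Of 74 called transcripts among the named and added genes, 26 were not called without IM10 replicate 2 and 11 to 20 without any other 1 pig, 22 with the methods' t-test (PTPRC, ULK1, CD3E and SLA-3 among them), 13 with array weights, 11 after quantile normalization, 8 with a common median and 7 with all 18 arrays, where BTG2 and OLR1 were called. With the replicate number as a block, 427 rose and 392 fell, and MIR24-2 and FKBP1B lost their calls. The labels do not say whether replicate numbers pair the pigs of both groups. Deviations of same-numbered pigs correlated with r of 0.02 to 0.30. Only number 1 correlated best with itself, with 0.30 against at most 0.14 with other numbers. Probe brightness limits dim transcripts, and 6 pigs per group limit all differences.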
